A study of Mus musculus with 6 samples.

Results

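The genes described here are 10 genes of antigen presentation: the class II chains H2-Aa, H2-Ab1 and H2-Eb1, the invariant chain Cd74, the class II activator Ciita, and B2m, Tap1, Tap2, Tapbp and Psmb8 of the class I peptide loading route. They were taken by gene symbol from the platform annotation, as every probe set that carries 1 of these symbols alone, which gave 23 of the 34945 probe sets with 1 symbol. All 10 of the 18193 genes had such a probe set: 4 each for H2-Aa and Tap1, 3 each for H2-Ab1 and Ciita, 2 each for B2m, Tapbp and Psmb8, and 1 each for H2-Eb1, Cd74 and Tap2. RNA of mouse uterine epithelium was hybridised to 6 Affymetrix 3′ arrays, 2 per group. Wild-type (WT) females were taken on day 1 of pregnancy (arrays 302 and 303) and on day 4 (277 and 284), and the third group was day 4 females carrying a GFP allele of the transcription factor gene Sox17 next to a normal allele (Sox17 heterozygous, 253 and 281). Day 1 was the day of the plug. In all groups the epithelium had been freed from the uterus with pancreatin and dispase. Strain, age, and whether a sample came from 1 animal or a pool are not given in the sources used here, so p-values measure only the spread between these samples.

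Class II molecules are pairs of an alpha and a beta chain that carry peptides from endosomes to CD4 T cells. H2-Aa and H2-Ab1 encode the pair called I-A, and H2-Eb1 encodes the beta chain of I-E. The invariant chain CD74 guards their groove on the way to the endosome, and CIITA, which does not bind DNA itself, switches their promoters on, mostly in dendritic cells, B cells and macrophages and, under interferon gamma, in epithelia. Class I molecules, in contrast, are made by nearly all nucleated cells. Their light chain is beta-2 microglobulin (B2m), and their peptides come from the proteasome, pass the TAP1-TAP2 transporter and are loaded with the help of tapasin (Tapbp). PSMB8 is a catalytic subunit that interferon adds to the proteasome in place of PSMB5.

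Each array had a signal of 500 as its mean after trimming 2% at each end, but WT day 4 array 277 stood apart: its median over all probe sets was 138, and the medians of the remaining arrays ran from 66.2 to 78.0. Genes with a mean signal between 50 and 200 read a median of 2.07 times as high on array 277 as on its partner 284 (3705 genes), whereas genes above 1000 read 0.928 times as high (4579 genes). Results on the class II genes are therefore given with and without array 277. The epithelial markers Epcam (15142 to 25634) and Krt8 (25455 to 29696) were strong on all 6 arrays, and the summed signal of 11 epithelial markers lay between 163457 and 183440. Among markers of antigen-presenting and other immune cells, Ptprc of all leukocytes read 18.9 to 112, Adgre1 of macrophages 44.7 to 199, Itgax and Flt3 of dendritic cells 18.6 to 164 and 6.62 to 28.1, Cd79a of B cells 2.58 to 23.6 and Cd3e of T cells 10.4 to 267. Other immune markers were brighter in places: the macrophage markers Cd68 and Itgam read up to 6401 and 2373 (both on day 1) and Lyz2 up to 1223, and the leukocyte gene Laptm5 up to 1740. No detection calls were used, so whether such signals lie above background is unknown, and in bulk RNA fewer cells of a type cannot be told apart from less RNA per cell.

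The class II chains gave low signals in every group. Neither day nor genotype separated them at the representative probe sets, the 1 of highest mean log2 signal for each gene. H2-Ab1, the I-A beta chain, read 133 and 189 on the WT day 1 arrays, 290 and 55.1 on the WT day 4 arrays and 38.6 and 98.5 on the heterozygous arrays. The WT day 4 arrays enclosed all other values except that of heterozygous array 253, so that the day groups overlapped. H2-Aa, the I-A alpha chain, read 121 and 141 on day 1, 364 and 96.7 in WT on day 4, and 105 and 149 in heterozygotes. H2-Eb1, the I-E beta chain, read 132 and 180, 445 and 108, and 131 and 123 in the same order. For both genes array 277 was the highest of all and its partner 284 the lowest.

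**Figure D1:**
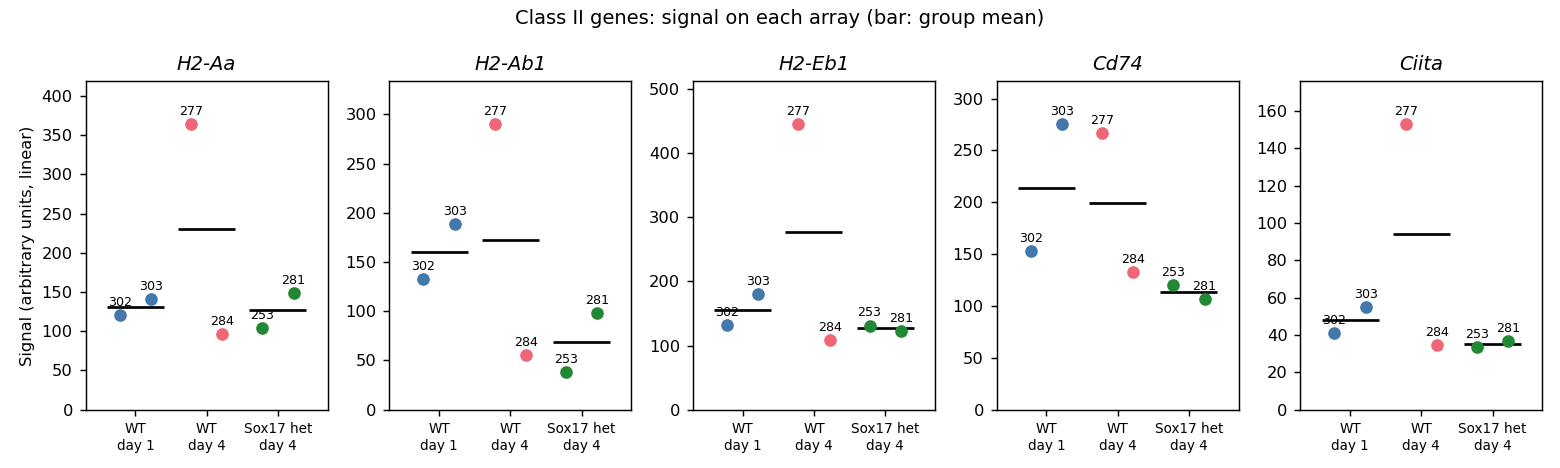
Signal on each array (linear scale, 1 panel per gene, each with its own axis from 0) of H2-Aa, H2-Ab1, H2-Eb1, Cd74 and Ciita in WT on day 1, WT on day 4 and Sox17 heterozygotes on day 4; points are arrays with their numbers and bars are group means. Array 277 lies above its partner 284 in each panel, such as 445 against 108 for H2-Eb1.

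Cd74 read 153 and 276 on day 1, 267 and 133 in WT on day 4, and 121 and 107 in heterozygotes. At the representative probe sets, Cd74 alone of the 5 class II genes had both heterozygous arrays below all 4 WT arrays. Another H2-Aa probe set did so too, with 28.5 and 25.2 in heterozygotes and 38.5 to 85.6 in WT. So did another of H2-Ab1, with 35.8 and 50.9 against 54.3 to 99.9. Ciita read 41.2 and 54.8 on day 1, 153 and 34.8 in WT on day 4, and 33.8 and 36.9 in heterozygotes, so that array 277 alone stood out. On array 277 the signals were 3.77 (H2-Aa), 5.26 (H2-Ab1), 4.11 (H2-Eb1), 2.01 (Cd74) and 4.40 (Ciita) times those on array 284. Of the 10 genes, 5 were highest on array 277, these being B2m and the class II genes other than Cd74, against 41.5% of all genes.

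The log2 changes of the 5 class II genes from day 1 to day 4 in WT lay between -0.32 (H2-Ab1) and 0.61 (Ciita), and none passed in limma (adjusted p = 0.635 to 0.893). Their 95% intervals were wide, from -2.86 to 2.22 for H2-Ab1 and from -1.41 to 1.16 for Cd74, so that changes of 2-fold in either direction lay inside them. Without array 277 the changes were all negative, from -1.50 (H2-Ab1) to -0.43 (H2-Aa), with adjusted p = 0.271 to 0.470. Without array 284 they were all positive, from 0.38 (Cd74) to 1.67 (Ciita), and Ciita passed (adjusted p = 0.0492). The direction of the class II genes with day therefore turned on which WT day 4 array was kept. These genes had 7 other probe sets, all dimmer, and 4 of them read below 50 on all 6 arrays. An H2-Ab1 probe set above that mark on 5 of the 6 arrays read 82.8 and 99.9 on day 1, 60.6 and 54.3 in WT on day 4, and 35.8 and 50.9 in heterozygotes (log2 change with day -0.66 ± 0.28, SE, adjusted p = 0.236, from limma run on all probe sets with 1 symbol). For H2-Aa the other probe sets had log2 changes with day of 0.17, 1.52 and -2.12, so they disagreed in sign.

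Several marker lists, like most class II genes, read highest on array 277, in the range where dim genes in general did (a median ratio to array 284 of 2.07 for mean signals of 50 to 200 and 2.94 below 50). The summed signal of 9 dendritic cell markers was 168 and 249 on day 1, 1345 (array 277) and 828 (284) in WT on day 4, and 272 and 378 in heterozygotes. That of 6 B cell markers was 402 and 373, 1079 and 240, and 224 and 247, and that of 9 T and NK cell markers 444 and 569, 1078 and 359, and 339 and 288. The 6 endothelial markers summed to 180 and 284, 754 and 252, and 157 and 156. In the dendritic cell sum Zbtb46 alone gave 427 on array 277 and 508 on array 284, against 21.4 to 133 elsewhere. Array 277 was the highest in each of these 4 lists. The 5 pan-leukocyte markers were not: they summed to 1013 and 801, 770 and 772, and 2190 and 867, and Ptprc read 98.0 on array 277 and 112 on array 284. The 12 macrophage markers summed to 9480 and 8661 on day 1, 3630 and 2066 in WT on day 4, and 2041 and 1698 in heterozygotes, a sum carried on day 1 by Cd68 and Itgam, and the other 10 were highest on array 277. With day, 1 dendritic marker rose (Zbtb46, 4.15 ± 0.37, adjusted p = 0.00947), 2 macrophage markers rose (Lyz2 and C1qa) and 2 fell (Cd68 and Itgam), and 0 of the B, T and NK markers passed in limma, where 0 also passed with an intensity trend. The 8 stroma markers summed to 3478 and 8902 on day 1, 1594 and 2775 in WT on day 4, and 449 and 846 in heterozygotes. The 5 smooth muscle markers summed to 839 and 862, 321 and 272, and 188 and 169. With day, 5 stroma markers were negative and 3 positive, and 0 passed in limma (3 fell with an intensity trend). Of the smooth muscle markers 4 were negative, and Acta2 passed (-1.60 ± 0.23, adjusted p = 0.0230). The part of all these cells in the signals of the 10 genes was not tested.

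Class II promoters are built from an X box, bound by RFX with a neighbouring CRE-like X2 box, and a Y box, bound by NF-Y at an inverted CCAAT; CIITA docks on these proteins. RefSeq promoter windows of GRCm38.p6 ran from 250 bases before to 50 after the gene's first base. They were examined for 6 of the 10 genes (B2m, Tapbp, Tap1, Psmb8, H2-Aa and H2-Eb1). The 2 class II windows are shown with matches to letters of these boxes in capitals (the X box, the X2 box TGACGTCA and the Y box CCAAT, each on both strands). Binding was not measured.
H2-Eb1, chr17:34305617-34305916, plus strand: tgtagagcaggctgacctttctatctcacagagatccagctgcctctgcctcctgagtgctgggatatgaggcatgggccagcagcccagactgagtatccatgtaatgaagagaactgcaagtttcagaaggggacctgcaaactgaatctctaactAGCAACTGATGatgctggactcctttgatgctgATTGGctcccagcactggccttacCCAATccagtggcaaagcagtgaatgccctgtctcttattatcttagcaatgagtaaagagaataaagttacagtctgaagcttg
H2-Aa, chr17:34287774-34288073, minus strand: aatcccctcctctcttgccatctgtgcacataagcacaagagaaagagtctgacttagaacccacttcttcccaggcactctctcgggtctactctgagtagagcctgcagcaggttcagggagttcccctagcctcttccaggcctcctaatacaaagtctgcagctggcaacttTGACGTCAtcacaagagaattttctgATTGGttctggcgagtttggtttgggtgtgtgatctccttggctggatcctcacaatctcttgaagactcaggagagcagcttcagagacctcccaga
In H2-Eb1 the X box match, AGCAACTGATG, began at -92, counted from the gene's first base, and was followed by CCAAT matches at -59 and -35. In H2-Aa the X2 box began at -74 and the CCAAT match at -48. The X2 box was not matched in H2-Eb1, nor the X box in H2-Aa. In H2-Eb1 the CCAAT match at -59 was inverted (ATTGG) and that at -35 was not. None of these matches overlapped. The X box pattern, in which 3 of these letters were left free, was found in 0.968% of all 32851 windows, TGACGTCA in 1.79% and CCAAT in 37.4%. No windows of H2-Ab1, Cd74, Ciita and Tap2 were examined, so whether these genes carry such boxes was not tested.

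Of 7 transcription factor genes of these boxes (Rfx5, Rfxap, Rfxank, Nfya, Nfyb, Nfyc and Creb1), 1 rose with day in WT and 6 did not pass. Nfyc, a subunit of NF-Y, read 1215 and 1513 on day 1 and 2869 and 3566 in WT on day 4 (log2 change 1.24 ± 0.24, adjusted p = 0.0411; without array 277 1.39, adjusted p = 0.0625). Rfx5, which binds the X box, read 741 and 852 on day 1 and 1582 and 1363 in WT on day 4 (0.89 ± 0.21, adjusted p = 0.0644), without overlap. Of 6 other class II genes, 1 rose with day: H2-Ob, a chain of the modulator H2-O, read 0.758 and 1.14 on day 1 and 43.7 and 11.3 in WT on day 4, values at which a fold depends on the pseudocount (adjusted p = 0.0475). It did not pass without array 277 (adjusted p = 0.0680). H2-DMa, part of H2-DM, which helps exchange the invariant chain peptide, read 77.6 and 109 on day 1, 113 and 47.2 in WT on day 4, and 46.3 and 43.1 in heterozygotes, with overlapping days (without array 277 -0.95 ± 0.30 with day, adjusted p = 0.156).

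Of 8 measured genes of endosomal processing, the step that trims the invariant chain, 1 rose, 3 fell and 4 did not pass with day, Ctsb (-0.19 ± 0.22, adjusted p = 0.623) and Lgmn (-0.87 ± 0.25, adjusted p = 0.0982) among the last. Cathepsin S (Ctss), which makes the last cuts in CD74, read 6369 and 5832 on day 1 and 862 and 874 in WT on day 4 (-2.81 ± 0.35, adjusted p = 0.0170; without array 277 -2.80, adjusted p = 0.0571). Cathepsin L (Ctsl), which does this in some epithelia, fell by 3.87 ± 0.34 on the log2 scale (adjusted p = 0.00938) and the cathepsin inhibitor Cst3 fell by 1.88 ± 0.18 (adjusted p = 0.0112). The lysosomal protease Ctsd rose, from 11083 and 10924 to 43043 and 33892 (1.80 ± 0.21, adjusted p = 0.0159). These proteases also serve lysosomes in general.

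Among the class I loading genes, Psmb8 fell with day. Psmb8 read 4822 and 4067 on the day 1 arrays, 2039 and 1977 in WT on day 4, and 1643 and 1729 in heterozygotes. All day 4 arrays were below both day 1 arrays, and array 277 lay beside array 284. The day 4 to day 1 ratio of WT means was 0.452 (log2 change -1.14 ± 0.20, SE, n = 2 arrays per group, limma adjusted p = 0.0346). It was the only 1 of the 10 genes called in this comparison (1 fell, 0 rose), where 13.3% of all genes were called, 5.73% as lower and 7.58% as higher. Its change was -1.09 after quantile normalization (adjusted p = 0.0303) and -1.44 with array medians set equal, where it did not pass (adjusted p = 0.187). Beside these stands a median change of all genes of 0.30, and of 0.15 after quantile normalization. With any of the 6 arrays left out Psmb8 no longer passed: it was -1.02 and -1.26 without day 1 arrays 302 and 303 (adjusted p = 0.172 and 0.124), -1.16 and -1.12 without 277 and 284 (0.0732 and 0.0630), and -1.14 without either heterozygous array (0.116). Without array 302 or 303 each call with day that the default limma fit made on all 6 arrays was lost. With an intensity trend, which called 24.8% of all genes and 10.8% as lower, Psmb8 was again the gene of the 10 that passed (adjusted p = 0.000196), and it passed with each array left out. The other Psmb8 probe set read 175 and 103, 120 and 85.5, and 64.0 and 59.2 and did not separate the days (-0.41 ± 0.37, adjusted p = 0.537 over all probe sets).

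**Figure D2:**
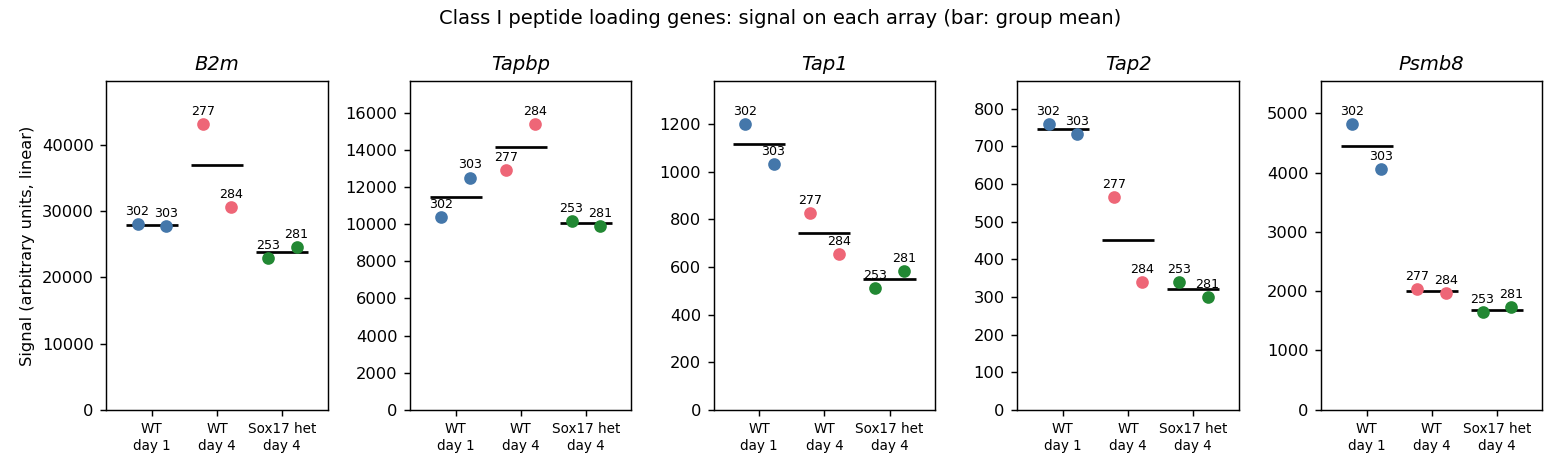
Signal on each array (linear scale, 1 panel per gene, each with its own axis from 0) of B2m, Tapbp, Tap1, Tap2 and Psmb8 in the same 3 groups; points are arrays with their numbers and bars are group means. Psmb8, Tap1 and Tap2 have both day 1 arrays above all 4 day 4 arrays, as in Psmb8 with 4822 and 4067 above 2039.

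Tap1, one chain of the peptide transporter, read 1201 and 1031 on day 1, 827 and 655 in WT on day 4, and 512 and 585 in heterozygotes. The 3 groups did not overlap and followed this order. Its log2 change with day was -0.60 ± 0.23 (95% interval -1.22 to 0.03, adjusted p = 0.184). Tap2, the other chain, read 760 and 734 on day 1, 564 and 339 in WT on day 4, and 340 and 299 in heterozygotes. Both day 1 arrays were the highest (-0.77 ± 0.31, 95% interval -1.61 to 0.07, adjusted p = 0.194), and the day 4 groups touched, with 339 in WT against 340 in heterozygotes. Neither passed with an intensity trend (adjusted p = 0.0523 and 0.0640), but both did with that trend when array 277 was left out (-0.76, adjusted p = 0.0273, and -1.14, adjusted p = 0.00820). The other 3 probe sets of Tap1 read mostly below 50 or scattered within groups, with log2 changes with day of -0.55, -2.00 and 2.72.

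B2m read 28104 and 27789 on day 1, 43225 and 30682 in WT on day 4, and 23008 and 24556 in heterozygotes. Its other probe set read 27188 and 29188, 34890 and 31530, and 24652 and 25344, so that at both probe sets WT day 4 was highest and heterozygotes lowest, without overlap. The log2 change with day was 0.38 ± 0.25 (95% interval -0.28 to 1.04, adjusted p = 0.376). Tapbp read 10417 and 12524 on day 1, 12947 and 15416 in WT on day 4, and 10203 and 9890 in heterozygotes (0.31 ± 0.22, adjusted p = 0.418). Its other probe set, at 2298 and 2283, 2800 and 1632, and 1695 and 1678, overlapped between the days (-0.10 ± 0.33, adjusted p = 0.881). With day, 3 of the 10 genes had both WT day 4 arrays below both day 1 arrays and 2 had them above, against 21.3% and 35.4% of all genes. The median change of the 10 was 0.09.

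Psmb8, Tap1 and Tap2 lie next to each other in the class II region of mouse chromosome 17, in the order Psmb9, Tap1, Psmb8, Tap2, H2-Ob, H2-Ab1, H2-Aa and H2-Eb1 along the GRCm38.p6 gene table. Psmb9, which shares a head-to-head promoter with Tap1, read 2285 and 1940 on day 1, 1568 and 977 in WT on day 4, and 1160 and 1072 in heterozygotes (-0.77 ± 0.30 with day, adjusted p = 0.188). At the representative probe sets all 4 neighbours had the day 1 arrays on top. The class II chains H2-Ab1, H2-Aa and H2-Eb1 did not, array 277 being their highest. Another H2-Ab1 probe set did have the day 1 arrays on top (82.8 and 99.9, against 35.8 to 60.6 on day 4). The windows of Tap1 and Psmb8 are shown as those of neighbours with a like order of signals, and that of B2m as a class I gene with another order. Capitals mark the interferon response element, the interferon gamma element TTCNNNGAA (GAS) and CCAAT, on both strands.
Tap1, chr17:34187306-34187605, plus strand: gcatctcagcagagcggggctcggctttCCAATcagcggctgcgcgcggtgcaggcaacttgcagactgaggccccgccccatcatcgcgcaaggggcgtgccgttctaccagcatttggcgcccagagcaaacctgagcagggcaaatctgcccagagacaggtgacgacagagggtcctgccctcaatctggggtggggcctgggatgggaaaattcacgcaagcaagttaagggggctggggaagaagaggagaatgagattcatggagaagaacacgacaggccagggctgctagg
Psmb8, chr17:34197945-34198244, plus strand: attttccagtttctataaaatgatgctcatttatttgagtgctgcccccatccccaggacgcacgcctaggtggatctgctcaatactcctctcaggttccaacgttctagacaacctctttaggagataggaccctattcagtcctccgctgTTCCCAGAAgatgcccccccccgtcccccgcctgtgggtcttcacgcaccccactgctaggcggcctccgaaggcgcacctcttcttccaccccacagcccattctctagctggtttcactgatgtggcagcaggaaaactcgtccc
B2m, chr2:122147437-122147736, plus strand: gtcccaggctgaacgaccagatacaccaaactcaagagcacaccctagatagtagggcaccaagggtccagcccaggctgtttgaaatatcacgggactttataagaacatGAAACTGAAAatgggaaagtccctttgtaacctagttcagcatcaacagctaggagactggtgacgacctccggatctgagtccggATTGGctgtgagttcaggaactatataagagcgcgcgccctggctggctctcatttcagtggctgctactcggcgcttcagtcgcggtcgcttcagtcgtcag
Psmb8 had a GAS match at -97, B2m the interferon response element, GAAACTGAAA, at -139 and a CCAAT match at -53, and Tap1 a CCAAT match at -222. None overlapped. The response element, with its central CT left free, was found in 3.44% of all windows and TTCNNNGAA in 8.3%.

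Besides Psmb8, 1 of the interferon-inducible proteasome genes fell with day. Psmb10, the third inducible catalytic subunit, read 2570 and 2224 on day 1, 698 and 507 in WT on day 4, and 491 and 490 in heterozygotes, and fell by 2.01 ± 0.25 on the log2 scale (adjusted p = 0.0168). It was the only 1 that passed of 5 other proteasome genes (Psmb9, Psmb10, Psme1, Psme3 and Pomp), all 5 having negative changes (median -0.41). With an intensity trend in limma 2 of them fell, Psmb10 and Psmb9 (adjusted p = 2.97e-05 and 0.025). Of the 14 standard core subunits, 0 passed in limma (median -0.03, 8 negative and 6 positive), with Psmb5, the counterpart of Psmb8, as 1 called with an intensity trend. Psmb5 read 9003 and 8969 on day 1 and 4374 and 5788 in WT on day 4 (-0.84 ± 0.23, adjusted p = 0.0917, with an intensity trend 0.00356). Psmb6, named here after its values were seen, and Psmb7, the counterparts of Psmb9 and Psmb10, were at 0.31 ± 0.22 and 0.42 ± 0.25 (adjusted p = 0.423 and 0.331). Differences between these changes were not tested.

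**Figure D3:**
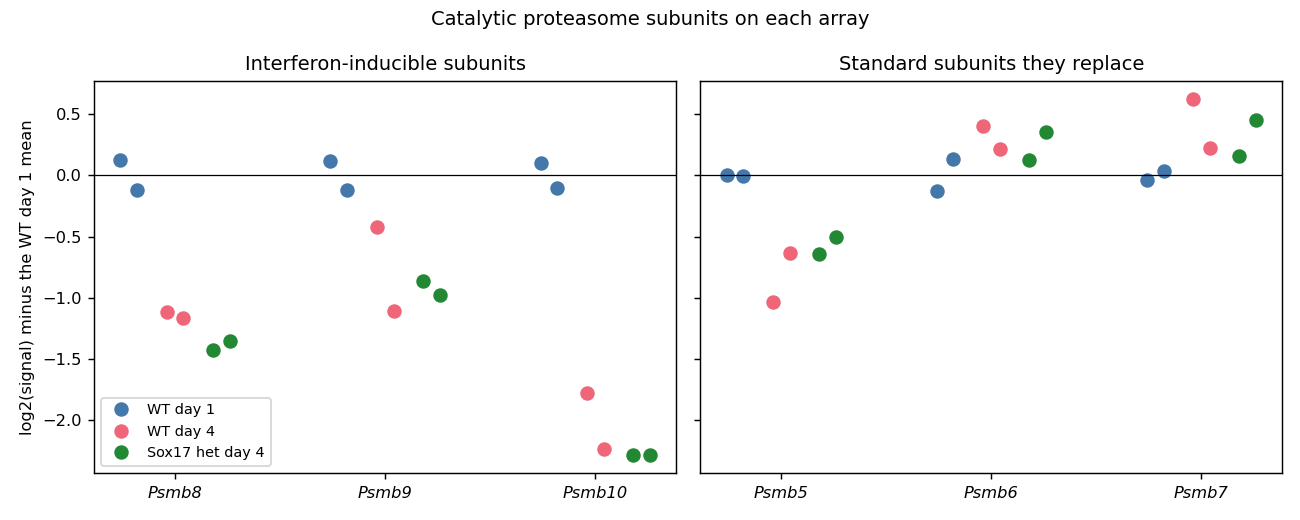
log2 signal of each array minus the WT day 1 mean of that gene, for the inducible proteasome subunits Psmb8, Psmb9 and Psmb10 and the standard subunits Psmb5, Psmb6 and Psmb7; points are arrays, coloured by group. All day 4 points of the inducible subunits and of Psmb5 lie below the day 1 points, while those of Psmb6 and Psmb7 lie around or above them.

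Regulators of interferon gamma signalling and of MHC genes fell in 6 and rose in 2 of 18 measured cases with day (median -0.11). The chemokine Cxcl10 read 343 and 195 on day 1 and 4.06 and 4.45 in WT on day 4. It fell by 5.63 ± 0.34 (limma adjusted p = 0.00669), a size that depends on the pseudocount at such values. The interferon regulatory factor Irf1, which read 5362 and 4222 on day 1 and 1278 and 1099 in WT on day 4, also fell (adjusted p = 0.0191). Without array 277 the changes of Cxcl10 and Irf1 were -5.58 and -2.11, and Irf1 did not pass. The kinase Jak2 (1.56 ± 0.22) and the inhibitory ligand Cd274 (2.06 ± 0.31) rose (adjusted p = 0.0224 and 0.0259). Nlrc5, the class I counterpart of CIITA, named here after its values were seen, read 988 and 910 on day 1, 246 and 117 in WT on day 4, and 98.0 and 170 in heterozygotes (-2.48 ± 0.48, adjusted p = 0.0439).

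Of 11 measured class I heavy chain genes, 1 rose, 0 fell and 10 did not pass with day (median -0.22, against 0.30 over all genes). Both WT day 4 arrays lay below both day 1 arrays for 6 of the 11 and above them for 1, against 21.3% and 35.4% of all genes, and with an intensity trend 1 fell (H2-Q2, -3.06, adjusted p = 0.00890). H2-K1 read 28354 and 30052 on day 1, 23623 and 22618 in WT on day 4, and 18676 and 18789 in heterozygotes (-0.34 ± 0.18 with day, adjusted p = 0.303). Heavy chain genes are close copies, so their probe sets may share signal. The riser was Cd1d1, a lipid-presenting relative, with mean signals of 18.5 on day 1 and 140 in WT on day 4 (3.09 ± 0.63, adjusted p = 0.0484), which did not pass without array 277 (2.88, adjusted p = 0.138). Among 8 other loading and chaperone genes, 2 fell and 6 did not pass, and 7 fell with an intensity trend. All 8 had both WT day 4 arrays below both day 1 arrays, against 21.3% of all genes. The oxidoreductase Pdia4 fell by 1.65 ± 0.19 and the translocon gene Sec61a1 fell by 1.56 ± 0.19 (adjusted p = 0.0151 and 0.0159). Of 6 costimulation genes, 0 passed in limma (2 fell with an intensity trend).

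In Sox17 heterozygotes on day 4, all 10 genes had lower mean log2 signals than in WT on day 4 at their representative probe sets, but none passed. The changes ran from -1.03 (Ciita and H2-Ab1) to -0.25 (Psmb8), with adjusted p = 0.397 to 0.714 in limma, and their median was -0.60, against -0.20 over all genes, of which 62.7% were negative. No gene of the array was called in this comparison (0% of 18193), and 0 of the 10 had an unadjusted p under 0.05, against 8.66% of all genes as lower and 4.56% as higher. With an intensity trend, which called 3.52% of all genes (1.93% higher, 1.59% lower), 0 of the 10 passed either (adjusted p = 0.154 to 0.650). The heterozygous arrays lay below both WT day 4 arrays for 5 of the 10 genes (Cd74, B2m, Tap1, Tapbp and Psmb8), against 30.6% of all genes, and above them for 0, against 18% of all genes. Markers of other cell types had mostly lower values too, with exceptions. Negative were 8 of 9 dendritic cell, 5 of 6 B cell, 8 of 9 T and NK cell, 10 of 12 macrophage and 3 of 5 pan-leukocyte markers. The other 2 pan-leukocyte markers, Cd52 (0.93) and Laptm5 (1.49), and the macrophage marker Itgam (2.19) were higher without overlap. Of 11 epithelial markers, 4 were negative and 7 positive. All 8 stroma markers were negative (median -1.41, 6 without overlap), with summed signals of 1594 and 2775 on the WT day 4 arrays against 449 and 846 on the heterozygous arrays, and Col3a1 fell with an intensity trend (-3.16, adjusted p = 0.0280). All 6 endothelial markers were negative as well (median -1.88). Without array 277 the stroma markers were still all negative (median -1.69) and 5 of the 6 endothelial ones were (median -1.28). Negative then were 7 of 12 macrophage (median -0.04), 4 of 6 B cell (-0.67) and 6 of 9 T and NK cell markers (-0.46). So were 8 of 9 dendritic cell (-0.65) and 3 of 5 pan-leukocyte markers (-1.58). None of these passed in the default limma fit, and their part in the lower signals of the 10 genes was not tested.

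**Figure D4:**
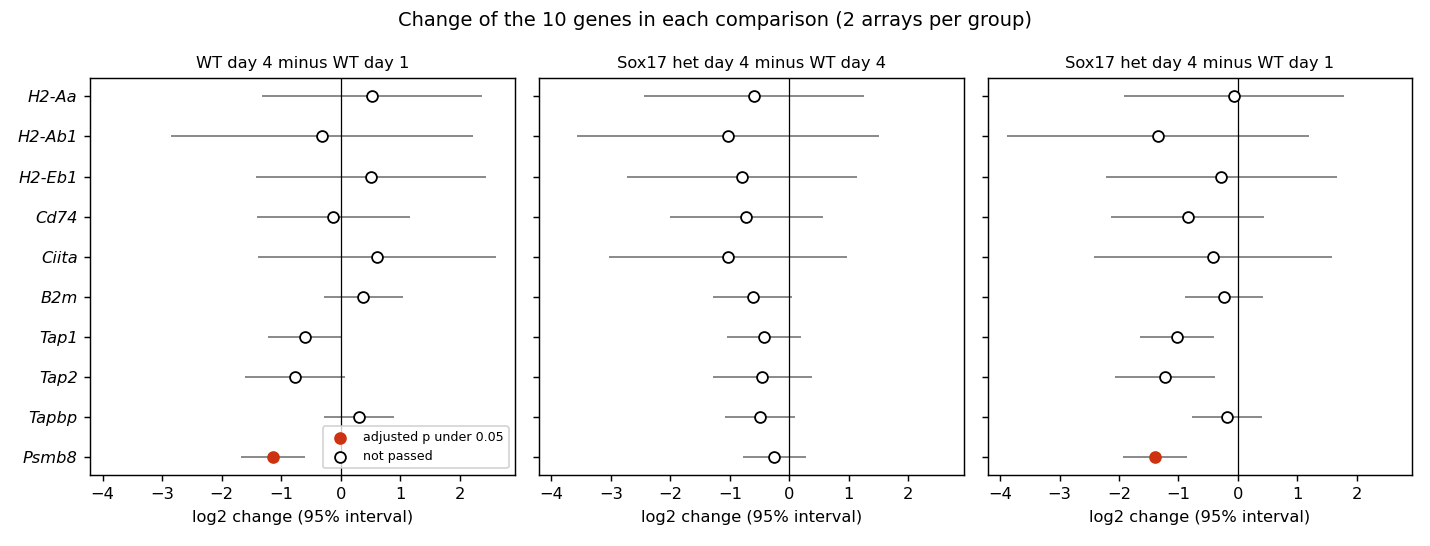
log2 change of each of the 10 genes with its 95% interval in the 3 comparisons; filled points passed at an adjusted p under 0.05 in limma and open points did not. Psmb8 is the filled point in both comparisons with WT day 1, at -1.14 and -1.39, and no point is filled between the day 4 groups.

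B2m had the smallest p of the 10 between the day 4 groups, with a ratio of heterozygous to WT means of 0.644 (-0.62 ± 0.25, 95% interval -1.28 to 0.05, adjusted p = 0.397) and of 0.753 at its other probe set (-0.41 ± 0.22, adjusted p = 0.503 over all probe sets). Tapbp followed, at 0.708 (-0.49 ± 0.22, adjusted p = 0.421), and at 0.761 at its other probe set. Tap1 was at -0.43 ± 0.23 and Tap2 at -0.45 ± 0.31 (adjusted p = 0.476 and 0.552). The dimmer probe sets of Tap1 disagreed in sign, at -0.81, 2.24 and -3.24. That at 2.24 read 28.5 and 55.7 in heterozygotes against 3.66 and 15.1 in WT on day 4, higher without overlap (limma adjusted p = 0.367 over all probe sets). Centring each array on its median turned Tap1 to 0.02 and Psmb8 to 0.20 and left B2m at -0.17, so these directions depend on the scaling.

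Without array 277 the class II part of this pattern was gone at the representative probe sets. H2-Aa, H2-Ab1, H2-Eb1 and Ciita were at 0.37, 0.16, 0.23 and 0.02, and Cd74 at -0.22. Dimmer probe sets went either way against array 284 or overlapped it. Heterozygotes read 28.5 and 25.2 against 50.6 for H2-Aa, and 35.8 and 50.9 against 54.3 for H2-Ab1. Another of H2-Ab1 (7.62 and 9.44 against 4.52) and 1 of Ciita (2.09 and 4.14 against 1.05) read higher. The 5 loading genes stayed below 0, from -0.62 (Tapbp) to -0.09 (Tap2). Without array 284, in turn, the class II genes were between -2.21 (H2-Ab1) and -1.22 (Cd74), and none passed (adjusted p = 0.0945 to 0.209), although H2-Eb1 did with an intensity trend (adjusted p = 0.0411).

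**Figure D5:**
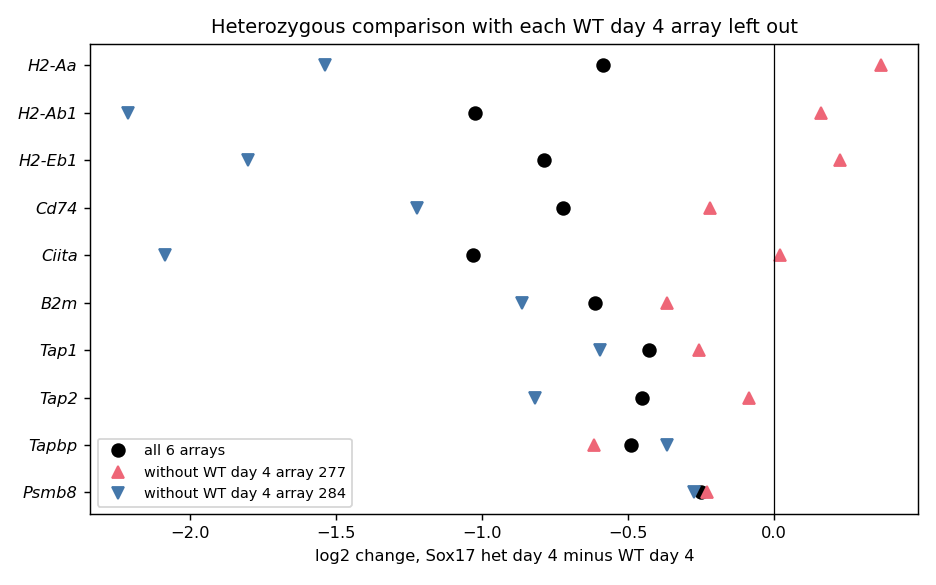
log2 change of each gene, Sox17 heterozygous minus WT on day 4, with all 6 arrays (circles) and with WT day 4 array 277 or 284 left out (triangles up and down). The class II genes other than Cd74 cross 0 when array 277 is left out, H2-Aa reaching 0.37, while Psmb8 stays near -0.25.

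Around the 10 genes, the heterozygous comparison had 0 calls in limma in each of the other lists. With an intensity trend, 3 of the 8 other loading and chaperone genes rose in heterozygotes: Sec61a1 (0.81, from 3066 and 2876 in WT to 5353 and 5096, adjusted p = 0.0107), Pdia4 (0.78, adjusted p = 0.0132) and calnexin (Canx, 0.80, adjusted p = 0.0352). Ifi30, the endosomal thiol reductase that opens disulfide bonds of antigens, fell with that trend, from 1777 and 1900 to 991 and 959 (-0.91, adjusted p = 0.00978).

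Set against WT on day 1, which differs in both day and genotype and shares arrays with the other comparisons, heterozygotes had both arrays below both day 1 arrays for 9 of the 10 genes, all but H2-Aa, against 30.1% of all genes, and above them for 0, against 32.2%. All 10 changes were negative, against 49.3% of all genes, with a median of -0.63 against 0.01. Psmb8 fell (-1.39 ± 0.20, ratio 0.379, adjusted p = 0.0284), as 1 of 10 where 9.55% of all genes were called, 4.48% as lower and 5.07% as higher. It did not pass without either day 1 array or either heterozygous array (adjusted p = 0.125 to 0.185), nor after centring (-1.25, adjusted p = 0.291). Tap1 and Tap2 were at -1.02 ± 0.23 and -1.22 ± 0.31 (adjusted p = 0.0713 and 0.0896) and passed with an intensity trend (adjusted p = 0.00362 and 0.00776), which called 3 of the 10 as lower, against 21.3% of all genes in either direction and 9.65% as lower. For Psmb8, Tap1 and Tap2 the WT day 4 change was -1.14, -0.60 and -0.77 beside these. H2-Ab1 was at -1.34 ± 0.95 and Cd74 at -0.85 ± 0.48 (adjusted p = 0.471 and 0.369).

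The genes whose log2 signals were most like those of H2-Ab1 over the 6 arrays, among 4406 others with a mean signal of at least 200 and a log2 range of at least 1, were Stn1, Pmm2, Gfod2, Nckipsd and Ddx56 (Pearson r 0.98 to 0.94). Of these, 4 were highest on array 277, as Pmm2 with 1555 there and 633 to 1151 elsewhere, and Ddx56 was highest on day 1 array 303. Those most like Tap1 were Cir1, Map2k1, Rab11fip1, Rnf31 and Stat2 (r 0.99 for each). Stat2, a transducer of interferon signals, read 957 and 781 on day 1, 352 and 219 in WT on day 4, and 148 and 212 in heterozygotes. With 6 arrays in 3 groups, such values describe a shared order of arrays, within groups as well as between them, and carry no test.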

How the data were processed

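Per the labels, each sample was 1 array; the authors deposited 1 linear intensity per probe set. The submitters' processing notes list RMA, Transcriptome Analysis Console and Affymetrix Expression Console, with no roles stated, and which of them summarised the probes is unknown.

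Of 45101 probe sets, 34945 carried 1 gene symbol, for 18193 genes. A gene was represented by its probe set of highest mean log2(signal + 1), unfiltered and not renormalized; this scale understates folds of dim genes. One limma 3.58.1 model (R 4.3.3) held the 3 group means of the 6 arrays (3 residual degrees of freedom, default eBayes), with Benjamini-Hochberg correction across genes and a threshold of 0.05. Values after ± are standard errors. Further probe sets were tested in a model of all probe sets with 1 symbol. With 2 arrays a side an exact permutation p is at least 0.333, and none was computed. The model was tested on simulated data.

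The members and lists were chosen with earlier results of these data known. The text names all members, up to 4 genes of lowest p in a list, defining cell markers and the 5 genes most like H2-Ab1 or Tap1, and says where it departs from this. Alternatives were quantile scaling, median centring, a pseudocount of 32, a mean signal of at least 200, an intensity trend, a robust prior, only the 4 arrays compared, the mean of probe sets, every probe set, an adjusted p of 0.10 and leaving out each array; the trend with an array left out, and the other lists without array 277, were added after seeing the data.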

Additional observations from a re-analysis of the deposited data

How the results depend on the processing

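Psmb8 kept its negative change from day 1 under every alternative run. The count of the 10 genes called with day in WT, 1 as reported, was 0 after centring on the median, with only the 4 arrays compared, with the mean of probe sets and over every probe set, and 2 with a mean signal of at least 200 (Psmb8 and Tap1, of 5 genes tested). Leaving out an array changed which of the 10 genes were called. In the default fit without array 284, Ciita passed and Psmb8 did not. With an intensity trend Psmb8 passed with each array left out. The count for heterozygotes against WT day 4, 0 as reported, was 0 under all alternatives but the trend with an array left out (0 to 2). Against WT day 1, 1 as reported, it was 0 after centring and with the mean of probe sets, 2 with only the 4 arrays, and 3 with a pseudocount of 32, a mean signal of at least 200, an intensity trend or an adjusted p of 0.10; leaving out an array gave 0 to 2, and with a trend 2 to 3.

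Signs turned for H2-Aa against WT day 1 (0.0398 after quantile normalization, 0.087 after centring), for Tap1 and Psmb8 between the day 4 groups after centring (0.021 and 0.20), and for Ciita with day with the mean of probe sets (-0.61). Leaving out an array moved the change with day between -0.43 and 1.48 for H2-Aa, -1.50 and 0.87 for H2-Ab1, -0.50 and 1.52 for H2-Eb1, -0.62 and 0.38 for Cd74 (0.3005 without array 303) and -0.44 and 1.67 for Ciita. Between the day 4 groups the ranges were -1.54 to 0.37, -2.21 to 0.16, -1.80 to 0.23 and -2.09 to 0.0204 for H2-Aa, H2-Ab1, H2-Eb1 and Ciita, and against WT day 1 -0.32 to 0.19 for H2-Aa (0.048 without array 303). Beyond the arrays and settings named, the cause was not tested. No paired analysis was possible because the groups share no replicate numbers. The 2 arrays per group and unknown detection limit the class II genes most.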
